A study of Mus musculus with 8 samples.

Results

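MicroRNA levels were compared between Csk-/- mouse embryonic fibroblasts that had received c-Src and the same cells that had received an empty vector, called mock cells below. The comparison used 4 of the 8 arrays in the series, 2 for each group, and the arrays were taken by the transfection named in their titles. All groups share the C57BL/6J strain and the Csk-/- genotype, so neither the c-Src cells nor the mock cells hold Csk. The other 4 arrays measured Csk-/- cells given back Csk, alone or together with c-Src, and they are used here for the same c-Src step in cells that do hold Csk. The labels call the 2 arrays of a group biological replicates and the series description calls them duplicates. The p-values therefore measure only the spread between these arrays, which may be technical. How the transfected cells were selected and how many separate transfections there were are not given in the sources used here. The arrays carry no probe for c-Src or Csk, so the transgenes could not be checked.

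Csk is a kinase that phosphorylates the C-terminal tyrosine of c-Src and its relatives and so holds them in an inactive form. A microRNA is a short RNA that guides an Argonaute protein to messenger RNAs, mainly by pairing through its seed, the bases from position 2 to 8 counted from the 5′ end, and lowers their translation and stability. MicroRNAs with the same seed are expected to share many targets. Several microRNAs often come from 1 primary transcript, and each hairpin yields a strand from either arm, of which the rarer one is marked with an asterisk in the older names used on these arrays.

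Of 611 mouse microRNAs on the array, 220 were detected on all 4 mock and c-Src arrays and 356 on none. The 243 detected on both arrays of at least 1 of the 4 groups of the series were tested. The arrays of the mock cells detected 236 and 226 microRNAs and those of the c-Src cells 250 and 239. The summed signal of all mouse microRNAs was 146211 and 151533 on the mock arrays and 196131 and 195697 on the c-Src arrays, before scaling. Each array was scaled to its own 75th percentile, so a scaled signal of 1 is that percentile, and values under a floor of 0.01933 were set to the floor. Over the tested microRNAs, which are not independent replicates, the mock arrays correlated with each other at 0.9958 and the c-Src arrays at 0.9978, against 0.9722 to 0.9745 between the groups. Array 2 of the cells with Csk alone stood apart. It had 696 outlier spots and 201 detected microRNAs, where each other array had 270 to 351 and 223 to 250. The slide held all 8 arrays, 1 column per group, so that slide column and transfection cannot be told apart. In RNA from whole cultures, fewer cells with a microRNA and less of it per cell cannot be told apart. Of 11 fibroblast or mesenchymal markers on the array, 10 were detected on all 4 arrays, with a summed signal of 38.3 to 42 in mock cells and 50.8 to 56.6 in c-Src cells. miR-145 was the one not detected. Of the 10, 2 rose (miR-21 and miR-31), 4 fell (miR-22, miR-143, miR-152 and miR-199a-3p) and 4 did not pass the test below, and miR-21 alone holds most of the summed signal, with 27.6 and 30.9 in mock cells and 40.0 and 45.2 in c-Src cells. None of the 7 epithelial markers was detected, with summed signals of 0.0192 to 0.0277 in mock cells and 0.0206 to 0.0255 in c-Src cells, nor was the liver marker miR-122. Of 7 blood markers only miR-486 was detected, and of 2 endothelial ones only miR-126-3p, which rose (0.21, adjusted p = 0.0411). Of 4 neural markers 3 were detected, of which miR-9 and miR-128 rose and miR-219 fell, with summed signals of 0.111 to 0.115 in mock cells and 0.128 to 0.129 in c-Src cells. The calls of miR-126-3p, miR-9, miR-128 and miR-219 did not hold under all 6 scalings given below. miR-9 read 0.0219 and 0.0206 in c-Src cells, close to the floor. Of 6 muscle markers 2 were detected and of 9 embryonic stem cell markers 2, and none of those tested passed. Their part in the results was not tested.

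The sequences below carry the main contrasts of the comparison, because in each set microRNAs with the same seed, in capitals, are set beside each other. They are mature mouse sequences from RefSeq (GRCm38.p6), 5′ to 3′. The first set holds miR-322, which fell, with its seed relatives, which did not pass the test, and with miR-503, which fell and differs from them in the last base of the seed.
miR-322: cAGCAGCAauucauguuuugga
miR-503: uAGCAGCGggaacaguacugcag
miR-15a: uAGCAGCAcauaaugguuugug
miR-15b: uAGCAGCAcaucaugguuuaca
miR-16: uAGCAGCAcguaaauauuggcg
miR-195: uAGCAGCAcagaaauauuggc
miR-497: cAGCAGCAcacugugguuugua
The next set holds microRNAs of 3 seeds whose members were called in opposite directions, for miR-99b and miR-27a by small differences that some settings end.
miR-351: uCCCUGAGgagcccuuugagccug
miR-125b-5p: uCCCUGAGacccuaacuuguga
miR-27b: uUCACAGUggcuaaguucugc
miR-27a: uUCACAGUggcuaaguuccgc
miR-99a: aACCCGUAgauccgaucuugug
miR-100: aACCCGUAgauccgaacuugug
miR-99b: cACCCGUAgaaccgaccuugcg
The last set holds microRNAs that rose together with relatives of the same seed.
miR-146a: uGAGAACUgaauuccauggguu
miR-146b: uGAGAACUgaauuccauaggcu
miR-221: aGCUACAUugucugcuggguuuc
miR-222: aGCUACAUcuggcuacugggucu
miR-29a: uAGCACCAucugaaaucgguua
miR-29b: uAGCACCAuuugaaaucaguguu
miR-29c: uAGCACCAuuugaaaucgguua
miR-34a: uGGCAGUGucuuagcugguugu
miR-34b-5p: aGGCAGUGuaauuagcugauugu

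c-Src was accompanied by lower levels of the X-linked microRNAs around miR-322 and miR-503, of miR-23b and miR-27b and of miR-99a. Higher levels were found for miR-146a and miR-146b, miR-221 and miR-222, the miR-34 and miR-29 families and miR-210. With another background correction, given below, the calls of miR-146a, miR-146b and the miR-34 family were lost, as were those of some X-linked and miR-29 strands. In all, 108 of the 243 tested microRNAs (44.4%) differed at an adjusted p under 0.05 (limma, fitted over all 8 arrays, Benjamini-Hochberg over the 243), of which 63 were higher (25.9%) and 45 lower (18.5%) in c-Src cells. At least 2-fold differences were found for 9 higher (3.7%) and 13 lower (5.35%). For 160 (65.8%) the mock and c-Src arrays did not overlap. The median log2 difference over all tested microRNAs was 0. The direction of the smaller differences rested on the scaling. The 63 higher and 45 lower became 41 and 52 when each array was scaled to the 75th percentile over all mouse microRNAs, and 128 and 24 without scaling, where the median difference was 0.28. Of the 108, 60 kept their direction and call under all 6 scalings, 39 of them higher and 21 lower. With 1 array left out at a time, 48 were called in all 8 fits, and the count was 56 without mock array 2 and 67 without array 2 of the cells with Csk and c-Src. Another background correction (normexp, which starts from the mean and local background signals) left 28 of the 108 called in the same direction, and 33 that had risen came out below 0, in a setting where the median over all microRNAs was -0.46. As set here it also adds an offset of 50 to every spot, which pulls the differences of dim microRNAs towards a shared value. A call that a dim microRNA loses there therefore does not show whether it rests on the background. Direction and call held under all 6 scalings, in all 8 fits and with normexp for 22, which are miR-503, miR-322, miR-351, miR-450a-5p, miR-542-3p, miR-23b, miR-27b, miR-99a, miR-224, miR-574-5p, miR-143 and miR-199b* among the falls and miR-221, miR-222, miR-29a, miR-29b, miR-29c, miR-210, miR-31, miR-31*, miR-19b and miR-25 among the rises.

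**Figure D1:**
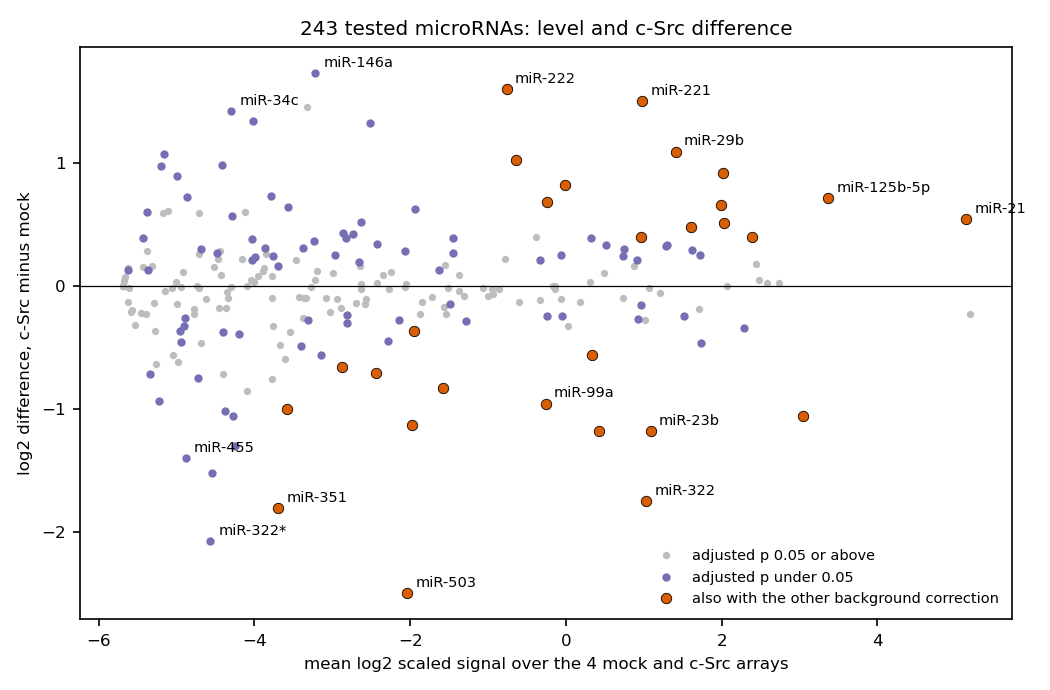
Each point is 1 of the 243 tested microRNAs, by its mean log2 scaled signal over the 4 mock and c-Src arrays (x axis) and its log2 difference between c-Src and mock cells (y axis). Orange points are the 28 called in the same direction with the normexp background too, and none of them lies among the dimmest 81 microRNAs.

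The call depended on brightness. With the tested microRNAs split into 3 bands of 81 by mean level, 34.6% of the dim, 44.4% of the middle and 54.3% of the bright band were called. With the normexp background none of the 28 called in the dim band kept its call, against 7 of 36 in the middle and 21 of 44 in the bright band. The median difference of the dim band in that setting was -0.59 and that of the bright band -0.02. The offset of 50 that this setting adds to each spot weighs most on dim signals. The losses in the dim band therefore do not show whether its calls rest on the background.

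Among the microRNAs linked to cell cycle arrest and differentiation, the X-linked cluster moved as a block. miR-322, the mouse relative of human miR-424, and miR-503 belong to the extended miR-15 and miR-16 family, which targets cyclins. miR-503 read 0.622 and 0.544 on the mock arrays and 0.103 and 0.102 on the c-Src arrays. Both c-Src arrays lay below both mock arrays, a 5.67-fold lower signal (log2 difference -2.50, SE 0.10, adjusted p = 5.75e-05). miR-322 is the brightest of the cluster, with signals of 3.58 and 3.93 in mock cells and 1.06 and 1.18 in c-Src cells, 3.35-fold lower (SE 0.09, adjusted p = 0.000114). The other arm of its hairpin, miR-322*, went from 0.0849 and 0.0889 to 0.0208 and 0.0203, just above the floor. miR-351 read 0.148 and 0.141 in mock cells and 0.0443 and 0.0385 in c-Src cells. The 3 of its 4 probes that were measured all fell, by values from -1.77 to -0.28 on the log2 scale. The summed signal fell further than any of them (-1.81), so these values do not show how the probes differ in response.

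The farther members of the cluster also fell. miR-450a-5p went from 0.362 and 0.389 to 0.17 and 0.174, 2.18-fold lower (adjusted p = 6.19e-05). miR-450b-5p went from 0.0741 and 0.0703 to 0.0307 and 0.0207, and only 1 array of the c-Src cells detected it. The other strand of that hairpin, miR-450b-3p, fell 2.47-fold, and miR-542-5p and miR-542-3p fell 2.02-fold and 2-fold. For miR-542-3p, known in other cells as a regulator of integrin-linked kinase, the signals were 0.113 and 0.123 in mock cells and 0.0587 and 0.0596 in c-Src cells (SE 0.08, adjusted p = 0.000537). In all, 9 of 9 tested members of 11 on the array fell, against 18.5% of all tested. The median log2 difference of the cluster was -1.52, against 0 over all tested microRNAs. After normexp correction the median of the cluster was -0.82, and the calls of the strands miR-322* (adjusted p = 0.0656), miR-450b-5p (0.0734), miR-450b-3p (0.0719) and miR-542-5p (0.0765) were lost. The hairpins annotated in the table used here run from miR-450b to miR-322 over chrX:53047997-53054349 (GRCm38.p6), a span of 6.35 kb on the minus strand, and those of miR-322 (chrX:53054255-53054349) and miR-503 (chrX:53053984-53054054) lie within the long noncoding RNA gene C430049B03Rik.

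The chromosomally separate miR-15 and miR-16 family, which shares the seed of miR-322, showed no such fall. miR-16 read 5.35 and 5.54 in mock cells and 5.40 and 5.91 in c-Src cells (log2 difference 0.05, SE 0.05, adjusted p = 0.446). miR-15b read 3.97 and 4.44 against 4.03 and 4.38. miR-15a, miR-195 and miR-497 had log2 differences of -0.06, 0.11 and -0.03. Of the 6 microRNAs with the seed AGCAGCA, 1 fell, miR-322, and 5 did not pass the test. Aligned without gaps from the 5′ end, miR-322 and miR-16 differ at 10 of 22 bases. Small differences in this family depended on the scaling. Without scaling, miR-15a stood at 0.25 (adjusted p = 0.00873), miR-16 at 0.36 (adjusted p = 0.00638) and miR-195 at 0.42 (adjusted p = 0.000978), and with quantile normalization miR-15b stood at -0.30 (adjusted p = 0.00441) and miR-195 at 0.25 (adjusted p = 0.000415).

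**Figure D2:**
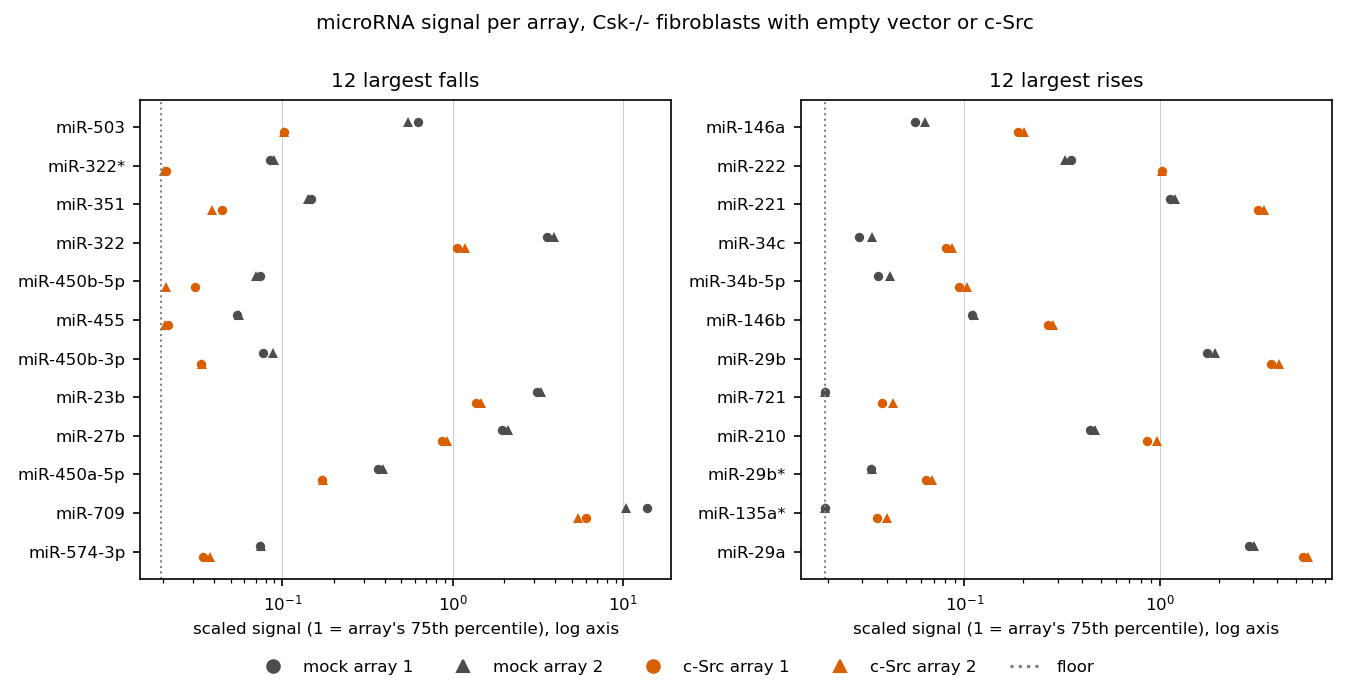
Scaled signal (x axis, log scale) on each mock array (grey) and each c-Src array (orange) for the 12 largest falls and the 12 largest rises among called microRNAs whose arrays do not overlap. The c-Src points lie at 0.103 and 0.102 for miR-503 and at 0.189 and 0.202 for miR-146a.

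miR-23b and miR-27b come from a second cluster, at chr13:63300484-63301275, inside the gene Aopep, that they share with miR-24-1. miR-23b read 3.11 and 3.30 in mock cells and 1.36 and 1.46 in c-Src cells, 2.27-fold lower (SE 0.05, adjusted p = 6.19e-05). miR-27b read 1.95 and 2.11 against 0.868 and 0.927, 2.26-fold lower (SE 0.06, adjusted p = 8.51e-05). miR-24-1*, the rarer strand of the miR-24-1 hairpin, read 0.0372 and 0.0368 in mock cells and lay at the floor on both c-Src arrays, where it was still detected. The paralogous cluster of miR-23a, miR-27a and miR-24-2 went the other way. miR-23a read 4.45 and 4.70 in mock cells and 5.76 and 6.33 in c-Src cells, and so rose by 0.40 on the log2 scale (SE 0.06, adjusted p = 0.00423). Its neighbour miR-27a, which differs from miR-27b at 1 of 21 bases, rose by 0.25 (SE 0.07, adjusted p = 0.0454), and miR-24-2* rose by 0.31 (adjusted p = 0.0322). The call of miR-27a was lost in 7 of the 8 fits without 1 array (highest adjusted p 0.273) and that of miR-24-2* in 6 (highest 0.219), both highest without c-Src array 2. The main strand miR-24 is the same for both clusters and was 1.27-fold lower, with 5.42 and 5.57 against 4.20 and 4.47 (adjusted p = 0.00212). miR-24 stood at -0.03 without scaling (adjusted p = 0.683) and lost its call with normexp (adjusted p = 0.135) and without mock array 2 (adjusted p = 0.0598), as did miR-23a without that array (adjusted p = 0.0549). After normexp correction miR-24-2* stood at -0.35 (adjusted p = 0.145), and the call of miR-27a was also lost. Cross-hybridisation between copies this alike was not tested.

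The microRNAs of the let-7 family and of the miR-99 and miR-125 families are linked to differentiation. miR-99a, a known repressor of the kinase mTOR, read 1.14 and 1.19 in mock cells and 0.591 and 0.609 in c-Src cells. It was 1.94-fold lower (SE 0.04, adjusted p = 5.75e-05), with no overlap between the groups. miR-100 differs from it at 1 of 22 bases and went only from 0.376 and 0.379 to 0.335 and 0.345 (log2 difference -0.15, adjusted p = 0.0164). Its 2 probes went in opposite directions, its call was lost in 4 of the 8 fits without 1 array, and over the 6 scalings its difference ranged from -0.21 to 0.16. miR-99b was 0.21 higher (adjusted p = 0.00976), but stood at 0 with quantile normalization (adjusted p = 1) and lost its call with normexp (adjusted p = 0.212), with the percentile over all mouse microRNAs (adjusted p = 0.103) and in 3 of the 8 fits without 1 array (highest adjusted p 0.081, without mock array 2). let-7c-1*, from the hairpin next to that of miR-99a on chromosome 16, was detected on both mock arrays and on no array of c-Src cells, at least 1.64-fold lower (adjusted p = 0.0322). Its call was lost in 6 of the 8 fits without 1 array (highest adjusted p 0.166, without mock array 2). miR-125b-5p, one of the brightest microRNAs of the cells, rose from 7.76 and 8.34 to 12.5 and 13.9 (1.64-fold, adjusted p = 0.000683). With quantile normalization this rise was 0.49 and lost its call (adjusted p = 0.0552). It shares its seed with miR-351, from which it differs at 12 of the 22 bases compared. Of 14 tested let-7 family strands, 3 rose, 1 fell and 10 did not pass, a smaller share called than the 44.4% of all tested, with a median log2 difference of 0.01. The rises of let-7d, let-7g and let-7i lost their calls in 4, 7 and 2 of the 8 fits without 1 array (highest adjusted p 0.136, 0.209 and 0.0893, all without c-Src array 2). let-7i rose most, by 0.48 (adjusted p = 0.00976), while let-7a stood at 5.61 and 6.33 against 5.81 and 6.28.

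Other falls lay outside these clusters. miR-455, which is abundant in cartilage, read 0.0543 and 0.0555 in mock cells and 0.0213 and 0.0205 in c-Src cells, 2.63-fold lower (SE 0.05, adjusted p = 4.63e-05). miR-140, the other cartilage-linked microRNA, and miR-140* did not pass the test. Both arms of miR-574, whose hairpin lies in Fam114a1 on chromosome 5, fell, the 3p arm 2.08-fold and the 5p arm 1.64-fold. miR-709, one of the 10 brightest in mock cells, read 13.8 and 10.4 against 6.04 and 5.45, but its call was lost in 3 of the 8 fits without 1 array (highest adjusted p 0.0893, without c-Src array 2). miR-224, in Gabre on chromosome X, read 0.421 and 0.475 in mock cells and 0.251 and 0.253 in c-Src cells, and fell 1.78-fold (adjusted p = 0.000453). miR-143, which is abundant in smooth muscle, read 0.172 and 0.171 against 0.107 and 0.111 and fell 1.58-fold (adjusted p = 0.000451). miR-199b* fell 1.48-fold, from 1.5 and 1.59 to 0.999 and 1.09. Of its list of miR-199 and miR-214 strands, miR-199a-3p also fell (log2 difference -0.27, adjusted p = 0.0296), and miR-199a-5p, miR-214 and miR-214* did not pass the test. The call of miR-199a-3p was lost with normexp (adjusted p = 0.187), and without scaling miR-199a-3p stood at 0.04. The normexp background ended the calls of miR-455 (adjusted p = 0.0837) and miR-574-3p (adjusted p = 0.081), and those of miR-709, miR-224, miR-143 and miR-199b* held.

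Among the inflammation-linked microRNAs, miR-146a is induced by NF-κB, and miR-146a and miR-146b repress adaptors of Toll-like receptor signalling. miR-146a read 0.0557 and 0.0625 in mock cells and 0.189 and 0.202 in c-Src cells. It was 3.31-fold higher, the largest called rise (SE 0.07, adjusted p = 5.75e-05). miR-146b, on another chromosome and different at 2 of 22 bases, read 0.109 and 0.112 against 0.268 and 0.283, 2.49-fold higher (SE 0.04, adjusted p = 4.63e-05). miR-155 was 1.21-fold higher (adjusted p = 0.0322), a call lost in 5 of the 8 fits without 1 array (highest adjusted p 0.209, without c-Src array 2). All 3 tested members of the list rose, against 25.9% of all tested. With the normexp background miR-146a stood at 0.18 (adjusted p = 0.438), miR-146b at 0.28 (adjusted p = 0.186) and miR-155 at -0.12 (adjusted p = 0.394), against a median of -0.46 over all microRNAs.

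Among the microRNAs linked to cell growth, miR-221 and miR-222, which repress the cell cycle inhibitor p27, rose the most. miR-221 read 1.13 and 1.20 in mock cells and 3.19 and 3.42 in c-Src cells, 2.82-fold higher (SE 0.05, adjusted p = 4.63e-05). miR-222 read 0.352 and 0.326 against 1.03 on both c-Src arrays, 3.03-fold higher (SE 0.09, adjusted p = 0.000137). Both rises also held with the normexp background, at log2 differences of 1.4 (adjusted p = 0.00086) and 1.08 (adjusted p = 0.00234). Their hairpins lie within 0.678 kb of each other on chromosome X (chrX:19146294-19146971), the chromosome that also carries the miR-322 cluster. Of the miR-17~92 cluster, which MYC activates, 7 of 9 tested strands rose, against 25.9% of all tested, and none fell, with a median log2 difference of 0.33. Of the 7, miR-19b alone kept its call with the normexp background and in all 8 fits without 1 array. The other calls, those of miR-17, miR-17*, miR-18a, miR-19a, miR-20a and miR-92a, were lost in 2 to 4 of the 8 fits (highest adjusted p 0.182, for miR-18a without mock array 2), and with normexp miR-17 stood at -0.31 and miR-17* at -0.15. miR-19b changed most, from 3.29 and 3.52 to 4.63 and 5.11 (log2 difference 0.51, adjusted p = 0.00232). Mature miR-19b and miR-92a come from chromosome X as well as from chromosome 14, where the other tested strands of the cluster lie. The array cannot tell these sources apart. Of the related miR-106b~25 cluster 3 of 5 rose, miR-25 by 0.40 (adjusted p = 0.000839). The calls of the other 2, miR-106b and miR-93, were each lost in 4 of the 8 fits (highest adjusted p 0.122 without c-Src array 2 and 0.225 without mock array 2). The 5 tested microRNAs with the seed AAAGUGC, shared by miR-17, miR-20a, miR-20b, miR-93 and miR-106b, rose by 0.21 to 0.36, and none of these calls held with the normexp background.

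The miR-34 family is induced by p53. miR-34c read 0.0289 and 0.0335 in mock cells and 0.0802 and 0.086 in c-Src cells, 2.67-fold higher (SE 0.08, adjusted p = 0.000134). miR-34b-5p, from the neighbouring hairpin on chromosome 9, went from 0.0362 and 0.0415 to 0.0935 and 0.103, 2.54-fold higher (SE 0.10, adjusted p = 0.000372). miR-34a changed less, from 0.116 and 0.131 to 0.152 and 0.171 (adjusted p = 0.0204), and lost its call in 4 of the 8 fits without 1 array. With the normexp background miR-34c stood at -0.26, miR-34b-5p at -0.20 and miR-34a at -0.22, all above the median of that setting and none called.

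The miR-29 family represses collagens and other matrix genes. All 5 tested strands rose, against 25.9% of all tested. miR-29b read 1.74 and 1.91 in mock cells and 3.70 and 4.07 in c-Src cells, 2.13-fold higher (SE 0.07, adjusted p = 0.000248). miR-29a read 2.87 and 3.03 against 5.41 and 5.73, 1.89-fold higher (SE 0.05, adjusted p = 0.000104), and miR-29c rose 1.76-fold. Mature miR-29b comes from either of 2 hairpins, at chr6:31063023-31063093 beside that of miR-29a and at chr1:195037040-195037120 beside that of miR-29c, and the array cannot tell them apart. The arms miR-29a* and miR-29b* rose 1.85-fold and 1.98-fold, but with the normexp background miR-29b* stood at -0.53 (adjusted p = 0.121) and miR-29a* at -0.62 (adjusted p = 0.0888). miR-29a and miR-29c differ at 1 of 22 bases. The miR-30 family, also linked to matrix genes, had 2 of 9 strands lower, against 18.5% of all tested, and none higher. These were miR-30a (-0.16) and miR-30d (-0.25), which stood at 0.15 and 0.06 without scaling and lost their calls with normexp and in 3 and 4 of the 8 fits without 1 array (highest adjusted p 0.182 and 0.122, both without mock array 2).

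**Figure D3:**
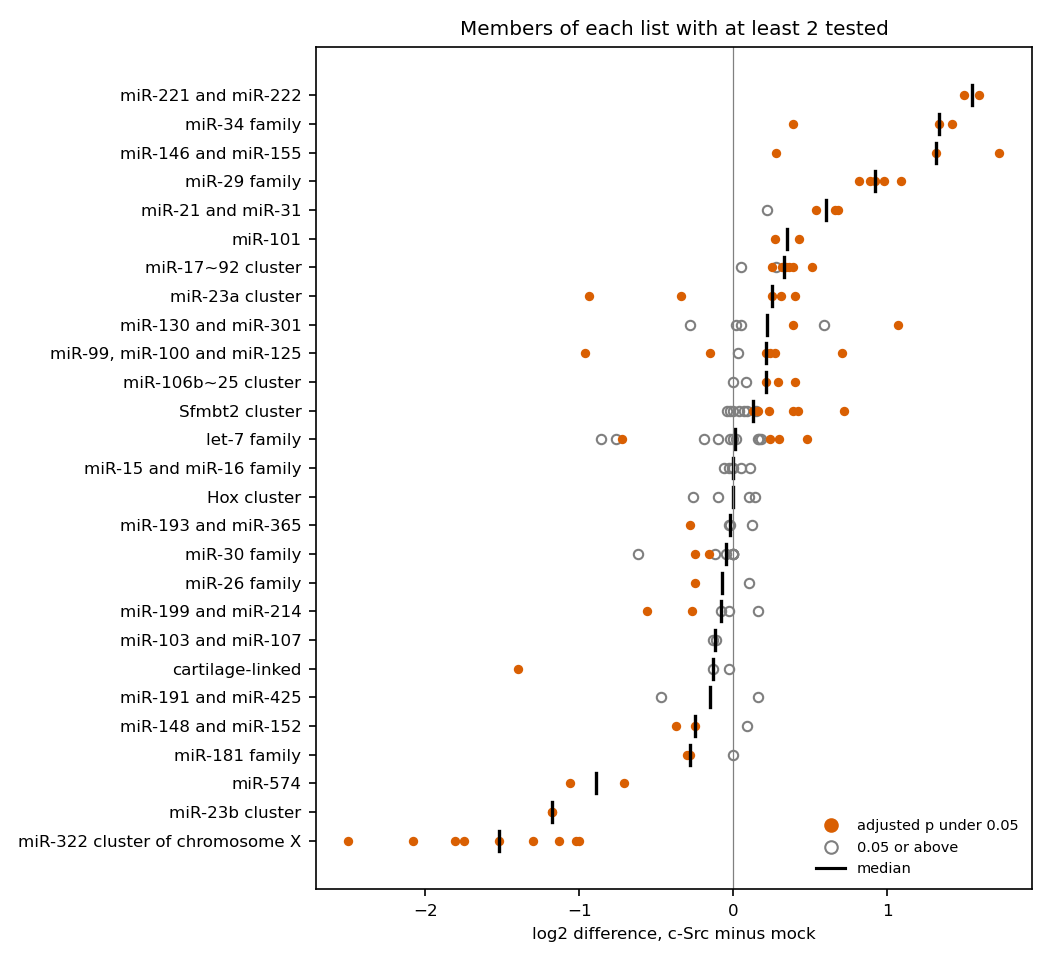
Log2 difference between c-Src and mock cells (x axis) for each tested member of the lists with at least 2 tested members, filled where the adjusted p is under 0.05, with the median of each list as a black bar. The miR-322 cluster has a median of -1.52 and the miR-221 and miR-222 pair one of 1.55.

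miR-210, a microRNA induced by low oxygen, read 0.437 and 0.464 in mock cells and 0.863 and 0.964 in c-Src cells, 2.03-fold higher (SE 0.07, adjusted p = 0.000344). Of the cancer-linked microRNAs, miR-31 read 3.18 and 3.15 against 4.96 and 5.07 (1.59-fold higher, adjusted p = 0.000453), and its other arm miR-31* rose 1.60-fold. miR-21, one of the brightest microRNAs in these cells, read 27.6 and 30.9 in mock cells and 40.0 and 45.2 in c-Src cells (1.45-fold, SE 0.11, adjusted p = 0.0158). The call of miR-21 was lost in 4 of the 8 fits without 1 array (highest adjusted p 0.119, without c-Src array 2) and with quantile normalization (adjusted p = 0.0552). Among the other bright microRNAs, miR-130a read 6.26 and 7.03 against 6.41 and 7.08 and did not pass the test. miR-720, now regarded as a fragment of a transfer RNA, read 39.7 and 39.2 against 34.2 and 32.9 (adjusted p = 0.0599). Of the 10 brightest in mock cells 3 rose, 2 fell and 5 did not pass, beside 44.4% called of all tested and 54.3% of the bright band.

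A few microRNAs crossed the detection limit. On both c-Src arrays and neither mock array, 7 were detected, and 2 on both mock arrays and neither c-Src array. Of the 7, miR-7b, miR-874 and miR-93* lay at the floor on every mock and c-Src array after scaling. miR-483, among the 7, and miR-92b, among the 2, did not pass the test (limma adjusted p = 0.155 and 0.188). Detection was called on signals before scaling, where the c-Src arrays had the larger summed signal. miR-721, which shares its seed AGUGCAA with miR-130a, lay at the floor in mock cells and read 0.038 and 0.0432 in c-Src cells, at least 2.09-fold higher (adjusted p = 0.000372). miR-135a* went from the floor to 0.0358 and 0.0402, at least 1.96-fold higher (adjusted p = 0.00358). These bounds are against the floor, and both values lie close to it. With the normexp background they stood at -0.58 and -0.60, near the median of -0.59 of the dim band. Of the 4 tested microRNAs with the seed AGUGCAA, miR-721 and miR-130b rose, the latter by 0.39 (adjusted p = 0.00905), and 2 did not pass the test. miR-130b stood at 0.07 with normexp (adjusted p = 0.546) and lost its call in 3 of the 8 fits without 1 array (highest adjusted p 0.0876, without c-Src array 2).

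Both strands of a hairpin could be read for 48 pairs. In 14 pairs both passed the test, 7 of them with both higher and 6 with both lower. The remaining pair is miR-24 with miR-24-2*, whose main strand has a second source. In 17 pairs 1 strand passed and in 17 neither did. Of the 108 called microRNAs, 107 had at least 2 probes measured, and in 103 of these all measured probes went in the direction of the call. The exceptions were miR-744, miR-100, miR-467e and miR-99b*. Of 171 tested microRNAs matched to a RefSeq mature sequence, 72 shared a seed with another, in 24 seeds. In 10 of these seeds members rose and none fell, in 6 members fell and none rose, in 4 members went both ways and in 4 none passed.

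The same step, c-Src added, can be read in cells that hold Csk by setting Csk with c-Src against Csk alone. This comparison shares no array with the one above, and 148 of 243 microRNAs (60.9%) were called in it, 47 higher (19.3%) and 101 lower (41.6%). That split became 82 and 58 with the percentile over all mouse microRNAs, 71 and 70 with quantile normalization and 64 and 66 without Csk array 2, the array that stood apart, and the count fell to 39 with normexp. Members of both main falling clusters fell there too, and all 9 strands of the X-linked cluster were called lower, from miR-503 (-1.17) to miR-542-3p (-2.14). miR-322 read 8.05 and 9.18 with Csk alone and 3.12 and 3.22 with Csk and c-Src (log2 difference -1.44, adjusted p = 0.000106), and miR-23b read 6.43 and 6.65 against 2.82 and 2.78 (-1.22, adjusted p = 3.1e-05). The test of the difference between the 2 effects was not passed for miR-322 (0.31, SE 0.13, adjusted p = 0.0972), miR-23b (-0.04, adjusted p = 0.662) or miR-27b (-0.08, adjusted p = 0.435), which does not show them to be equal. Without Csk array 2 the difference was passed by miR-322 (0.60, adjusted p = 0.0143) and miR-23b (0.18, adjusted p = 0.0415) and not by miR-27b (0.15, adjusted p = 0.106), and miR-322 and miR-23b still fell with Csk, by 1.14 and 1. miR-503 fell 2.25-fold with Csk and 5.67-fold without (difference 1.33, SE 0.14, adjusted p = 0.00135). In all, 6 of the 9 strands of the X-linked cluster passed this test, in both directions. miR-322* also fell less with Csk (0.59, adjusted p = 0.000481). Deeper falls with Csk were found for miR-542-3p (-1.15, adjusted p = 0.0012), miR-542-5p (-0.94), miR-450a-5p (-0.77) and miR-450b-3p (-0.66). Of the 6, miR-322* and miR-450b-3p did not keep their calls under all 6 scalings. With normexp none of the 6 passed, and miR-542-5p (0.24) and miR-450b-3p (0.21) turned, where the median over all tested microRNAs was 0.29. miR-221 and miR-222 rose with Csk as well, by 0.95 and 0.99, less than without (differences -0.55, adjusted p = 0.00297, and -0.61, adjusted p = 0.0123). The median of such differences over all tested microRNAs was -0.17. Over the 6 scalings the differences ranged from -0.74 to -0.14 for miR-221 and from -0.80 to -0.21 for miR-222. Neither kept its call under all of them. Without Csk array 2 the differences of miR-221 and miR-222 were -0.32 and -0.49.

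Other microRNAs went in opposite directions. miR-146a rose without Csk, while with Csk it read 0.116 and 0.122 and was detected on neither array once c-Src was added, at least 6.16-fold lower (adjusted p = 6.64e-06). miR-146b fell with Csk, from 0.197 and 0.205 to 0.133 and 0.135 (log2 difference -0.59, adjusted p = 0.000143). miR-455 rose with Csk, from 0.0289 and 0.0309 to 0.0511 and 0.0489, and miR-143 rose 4.56-fold, from 0.0299 and 0.0304 to 0.144 and 0.131, detected on 1 of the 2 arrays with Csk alone. miR-210, which rose 2.03-fold without Csk, read 0.637 and 0.695 against 0.57 and 0.559 (-0.24, adjusted p = 0.037). Without Csk array 2 miR-210 stood at 0.02 with Csk (adjusted p = 0.807) and its difference at -1 (adjusted p = 0.00139). The differences of miR-146a (-4.22), miR-146b (-1.68), miR-455 (2.38) and miR-143 (3.06) all passed without that array. miR-10a and miR-10b, which lie in different Hox clusters and share a seed, did not pass the test without Csk and differed in opposite directions with it, by -2.93 (adjusted p = 1.23e-05) and 2.04 (adjusted p = 9.8e-06). The tests of the difference gave -3.03 and 2.14, and with the normexp background -0.58 (adjusted p = 0.182) and 0.96 (adjusted p = 0.0968).

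**Figure D4:**
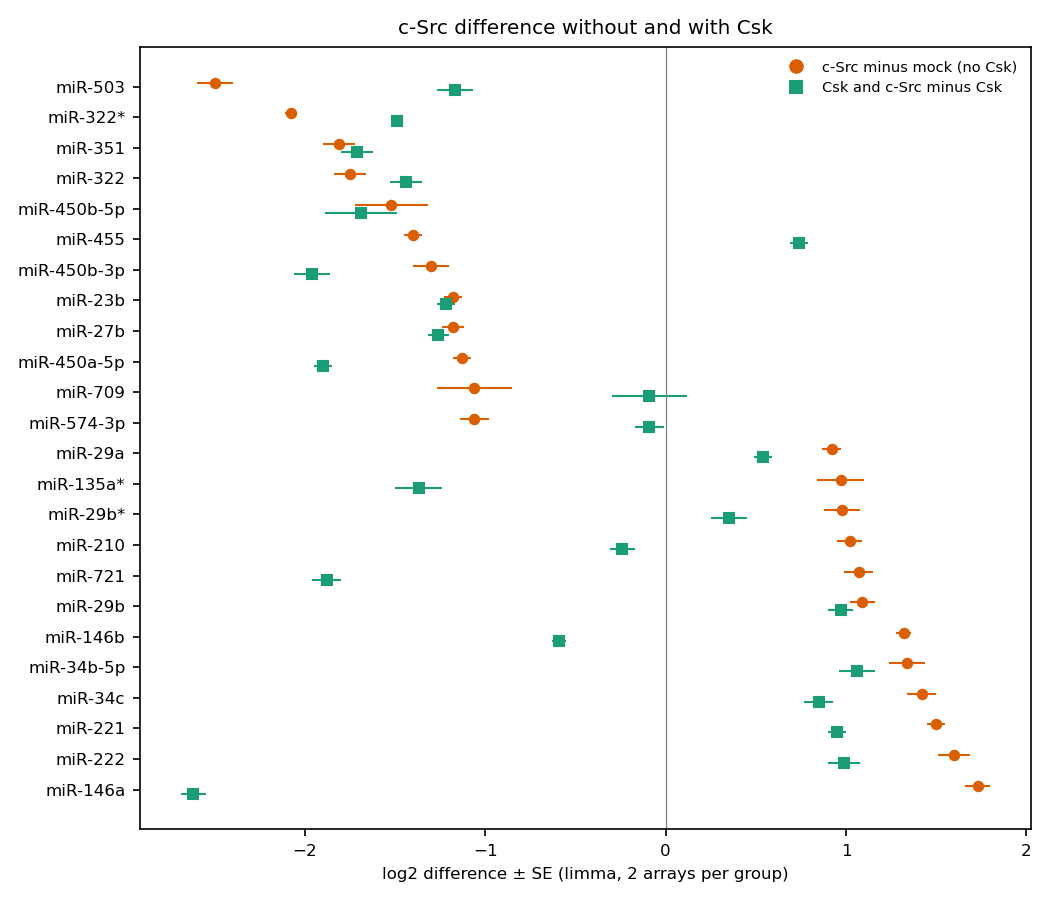
Log2 difference (x axis, with the standard error from limma as bars) with c-Src added in cells without Csk (orange circles) and with Csk (green squares), for the 12 largest falls and 12 largest rises without Csk. miR-322 stands at -1.75 and -1.44, and miR-146a at 1.73 and -2.62.

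The test of the difference between the c-Src effects with and without Csk was passed by 123 of 243 microRNAs (50.6%), 33 of them higher (13.6%) and 90 lower (37%) with Csk. The median of this difference over all tested microRNAs was -0.17. Of the 108 called without Csk, 65 passed it. Among these were 32 rises that were lower with Csk, 16 falls that were less deep or turned with Csk, 6 rises that were higher and 11 falls that were deeper. The split of 33 and 90 became 69 and 34 with the percentile over all mouse microRNAs and 59 and 63 with quantile normalization, and 50 and 54 without Csk array 2, and 54 of the 123 kept direction and call under all 6 scalings. With the normexp background 1 microRNA passed, miR-199b* (difference 1.11, adjusted p = 0.0361). In that setting the differences kept their sign for miR-146a (-0.77, adjusted p = 0.177), miR-146b (-0.63), miR-455 (0.66), miR-143 (1.16, adjusted p = 0.0835), miR-210 (-0.89, adjusted p = 0.064) and miR-503 (0.68), and turned for miR-721 (0.26) and miR-135a* (0.31). The values of miR-721 and miR-135a* lay near the median over all tested microRNAs in that setting, 0.29.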

How the data were processed

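Total RNA (100 ng per array, RNA integrity above 9, per the labels' protocols) was labelled with Cy3 and hybridised to 1-colour Agilent mouse microRNA arrays. The deposited files hold spot intensities from Agilent Feature Extraction 9.5.3.1, per the file headers, already background-subtracted by that software. The authors' series table holds total gene signals, a linear intensity with values under 1 set to 1. Of 13715 spots per array, control and outlier spots were left out, the mean processed signal of each probe was taken and the 1 to 4 probes of a microRNA were summed. Sums were divided by the array's 75th percentile, computed from 187 microRNAs that every array detected (611.9 to 805.7), set to a floor of 0.01933 and turned to log2. limma 3.58.1 (R 4.3.3) was fitted to 4 group means, with 4 residual degrees of freedom, after a check on simulated data. With 2 arrays against 2 an exact permutation test cannot go below p = 0.333. The number of arrays limits the precision.

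Alternatives were other scalings, normexp (offset 50), floors, filters, spot summaries, an intensity trend, a replicate block and leaving out each array. The members and lists were chosen with earlier results of these data known. Named are the 12 largest rises and falls without overlap, the 10 brightest in mock cells, 10 chosen microRNAs, up to 4 brightest members of each of 32 lists and the 5 largest differences by Csk. Other names, such as miR-542-5p, miR-24-1*, miR-224, let-7c-1* and miR-29a*, were chosen after their values were seen. Sequences and positions are from RefSeq, which matched 171 of the 243 tested.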

Additional observations from a re-analysis of the deposited data

Results flagged for a closer look

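The c-Src effect with Csk less that without Csk (log2) passed the test for 71 of the 101 tested microRNAs that the naming rule singled out. The rule picks some of them for this difference, so their share says nothing about the set. With the normexp background 1 of the 243 passed, miR-199b*, and 51 had an unadjusted p under 0.05. Of the 123 called, 36 had the opposite sign in that setting, where the median over the 243 was 0.29. In the main setting that median was -0.17, and 100 of the 123 kept their sign under all 6 scalings. Among those 71, differences of at least 1 were as follows. The effect was more positive with Csk for miR-143 (2.85), miR-455 (2.14), miR-10b (2.14), miR-669f (1.52), miR-467b (1.36), miR-503 (1.33), miR-199b* (1.33), miR-21* (1.08), miR-301b (1.06) and miR-669a (1.05). It was more negative with Csk for miR-146a (-4.35), miR-10a (-3.03), miR-721 (-2.95), miR-135a* (-2.34), miR-196a (-1.99), miR-146b (-1.91), miR-195 (-1.41), miR-210 (-1.26), miR-542-3p (-1.15), miR-34a (-1.12) and miR-193b (-1.09).

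Smaller differences among the 71 were more positive for miR-709 and miR-574-3p (both 0.97), miR-574-5p (0.85), miR-467a (0.84), miR-140* (0.74), miR-130b (0.72), miR-140 (0.69), miR-322* (0.59), miR-193 (0.47), miR-99a (0.42) and miR-218 (0.41). Among growth-linked and p53-linked microRNAs, more negative values were found for miR-222 (-0.61), miR-25 (-0.57), miR-34c (-0.57), miR-221 (-0.55), miR-106b (-0.46), miR-93 (-0.45) and miR-19b (-0.43). Matrix-linked ones were miR-30c (-0.88), miR-29b* (-0.63), miR-30b (-0.61), miR-30a (-0.60), miR-29c (-0.54), miR-29a (-0.38) and miR-30d (-0.27). Those linked to differentiation or the cell cycle were miR-450a-5p (-0.77), miR-450b-3p (-0.66), miR-16 (-0.59), miR-125b-5p (-0.55), let-7a (-0.54), let-7f (-0.52), miR-15b (-0.47), miR-15a (-0.46), let-7c (-0.43) and miR-99b (-0.37). The rest were miR-214 (-0.89), miR-199a-5p (-0.81), miR-155 (-0.77), miR-26b (-0.69), miR-31* (-0.63), miR-148b (-0.50), miR-103 (-0.49), miR-31 (-0.46), miR-26a (-0.46), miR-425 (-0.40), miR-101a (-0.32), miR-152 (-0.30), miR-107 (-0.28), miR-365 (-0.24) and miR-24 (-0.23). Some of these smaller differences did not keep their sign under all 6 scalings. They were those of let-7c, let-7f, miR-15b, miR-16, miR-19b, miR-24, miR-29a, miR-30d, miR-99b, miR-101a, miR-107, miR-152, miR-365 and miR-425.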

How the results depend on the processing

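The count of 108 called for c-Src minus mock became 28 with the normexp background and 66 without the detection filter, and ranged from 56 to 112 with 1 array left out. Without mock array 2 it was 56 and without array 2 of the cells with Csk and c-Src 67. The 123 called for the difference by Csk became 1 with normexp and ranged from 80 (without array 2 of the cells with Csk and c-Src) to 121. The 148 called with Csk present became 39 with normexp and ranged from 111 to 147. The cause was not tested. The split of 63 higher and 45 lower became 41 and 52 with the percentile over all mouse microRNAs, 128 and 24 without scaling, and 124 and 23 in the series table. The difference by Csk, 33 and 90, became 69 and 34 with that percentile, 59 and 63 with quantile normalization and 50 and 54 without Csk array 2. With Csk present, 47 and 101 became 82 and 58, 71 and 70 (quantile), 64 and 79 (median), 62 and 76 (no scaling), 63 and 77 (series table) and 64 and 66 without Csk array 2. Among the microRNAs of the naming rule, signs turned with normexp, where the median was -0.46, for miR-34c (-0.26), miR-34b-5p (-0.20), miR-721 (-0.58), miR-29b* (-0.53), miR-135a* (-0.60), miR-155 (-0.12), miR-34a (-0.22), miR-24-2* (-0.35), miR-101a (-0.21), miR-338-3p (-0.45), miR-669f (-0.19), miR-467b (-0.43) and miR-669a (-0.47). Without scaling, where the median was 0.28, signs turned among the same microRNAs for miR-15a (0.25), miR-30a (0.15), miR-30d (0.06), miR-199a-3p (0.04, or 0.03 in the authors' values), miR-199a-5p (0.28), miR-214 (0.23), miR-181b (0.01), miR-181a (0.03), miR-140* (0.28, or 0.27 in the authors' values), miR-26a (0.06), miR-148a (0.06), miR-107 (0.18), miR-103 (0.20, or 0.19 in the authors' values), miR-365 (0.28) and miR-193 (0.03). The labels do not say that equal array numbers share a culture or batch. In the files the number goes with the slide row, and the correlation of deviations was 0.292 for mock with c-Src and -0.0912 to 0.438 over the 6 pairs of groups, not above 0.1 in every pair, so the numbers were not taken as pairs. With the replicate block the 3 counts were 117, 141 and 156, and 6 of the microRNAs of the naming rule gained a call for c-Src minus mock, which were miR-720 (adjusted p = 0.0431), miR-21* (0.0255), let-7c (0.0151), let-7f (0.00948), miR-301a (0.00917) and miR-196b (0.00418), and none lost one. Of the 81 dim microRNAs, none kept its call with normexp, where the added offset weighs most on dim signals.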

Other observations

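miR-689, singled out after its values were seen, had a large difference that did not pass the test. It read 0.0645 and 0.0563 in mock cells and 0.181 and 0.15 in c-Src cells (log2 difference 1.45, SE 0.62, limma adjusted p = 0.118). The arrays with Csk alone read 0.0314 and 0.121, and those with Csk and c-Src 0.0763 and 0.0739. Fitted on the 4 mock and c-Src arrays alone, the SE was 0.14 and the adjusted p = 0.0138.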
